A study of Mus musculus with 6 samples.

Results

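The genes described are the 6 catalytic subunits of the mammalian COMPASS family, *Kmt2a*, *Kmt2b*, *Kmt2c*, *Kmt2d*, *Setd1a* and *Setd1b*, and 4 core subunits that the complexes share, *Wdr5*, *Ash2l*, *Rbbp5* and *Dpy30*. They were chosen by symbol, with earlier results of the same comparison known, and all 10 were found among the 16018 genes of the deposited table. All 10 also passed the filter on low values that left 16016 genes for testing. Because the genotype difference was known when the genes were chosen, it is given for them as a description. Where members are counted among the calls of a fit over all genes, the share of all genes called is printed beside the count and nothing is read from it.

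RNAseq was performed on whole hearts of 3 female NBCe1-B/C KO mice, written KOb/c here, and 3 female WT mice, all between 4 and 5 weeks of age. KOb/c mice lack the NBCe1-B and NBCe1-C variants of the sodium bicarbonate cotransporter NBCe1, which is encoded by *Slc4a4*, in every tissue and from conception. They keep the kidney variant NBCe1-A. Both genotypes came from crosses of heterozygous mice on a C57BL/6J background, and no agent was given to either. As a model, the KOb/c heart is thus not a heart-restricted deletion, and many of the mice die young.

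Methyl groups on lysine 4 of histone H3 (H3K4) mark active promoters and enhancers. In mammals, COMPASS complexes place most of them. Each complex holds 1 catalytic subunit with a SET domain, and the core subunits WDR5, RBBP5, ASH2L and DPY30 hold that subunit in its active form. SETD1A and SETD1B are linked mainly to trimethylation at promoters, KMT2A and KMT2B to a smaller group of promoters that includes developmental genes, and KMT2C and KMT2D to monomethylation at enhancers. Mutations of KMT2D cause Kabuki syndrome, in which congenital heart defects are common.

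The libraries held between 41364857 and 49100802 reads on genes, and members were counted with between 482 and 3022 reads. Counting error alone, taken from a member's mean reads over the 6 libraries, was between 1.98% and 4.19% of its count. The normalized count of *Slc4a4* was 264, 944.8 and 268.7 in the libraries labelled KOb/c replicates 1, 2 and 3. It was 675.1, 822.2 and 788.8 in those of WT replicates 1, 2 and 3. The library labelled KOb/c replicate 2 goes against its label in this gene, so the fold changes of the members and of both classes are also given without it, while levels per kb and the values of single genes outside the members are given with it. *Myh6*, the main myosin heavy chain of the adult mouse heart, was at 742963 or more in each library. In bulk RNA, fewer cells of a type and less RNA per cell cannot be told apart.

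The catalytic genes and the core subunits differ first in size. In the GENCODE M21 annotation of GRCm38, the longest transcripts of the catalytic genes ran from 6.49 kb (*Setd1a*) to 19.8 kb (*Kmt2d*), and those of the core subunits from 0.789 kb (*Dpy30*) to 3.7 kb (*Ash2l*). *Kmt2c* (chromosome 5, 25271798 to 25498783, reverse strand) spans 227 kb and has 59 exons in its longest transcript. *Kmt2d* (chromosome 15, 98831669 to 98871204, reverse strand) puts 55 exons into 39.5 kb. *Setd1b* (chromosome 5, 123142193 to 123168629, forward strand) has 17 exons in 26.4 kb. *Dpy30* (chromosome 17, 74299474 to 74323944, reverse strand) has 5 exons. The longest transcript listed for *Ash2l* is a single exon without splicing, and its longest coding transcript is 3.31 kb in 13 exons.

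The promoters of the members were compared as well, because H3K4 trimethylation itself is found at promoters rich in CpG, the dinucleotide to which KMT2A, KMT2B and the SETD1 partner CXXC1 bind through their CXXC domains. The 250 bases before the RefSeq start (GRCm38.p6) were read for 7 of the 10 genes. The windows below are those of the catalytic genes *Kmt2c* and *Kmt2d* and of the core subunits *Wdr5* and *Rbbp5*, written 5′ to 3′ on the strand of the gene, with each CG in capitals.
Kmt2c, chr5:25498784-25499033, reverse strand: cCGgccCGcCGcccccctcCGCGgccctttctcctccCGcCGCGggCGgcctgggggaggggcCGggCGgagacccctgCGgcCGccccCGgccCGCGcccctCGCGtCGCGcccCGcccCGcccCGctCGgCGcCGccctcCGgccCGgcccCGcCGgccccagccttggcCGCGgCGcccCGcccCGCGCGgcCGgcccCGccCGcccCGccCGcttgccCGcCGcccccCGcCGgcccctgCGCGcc
Kmt2d, chr15:98871206-98871455, reverse strand: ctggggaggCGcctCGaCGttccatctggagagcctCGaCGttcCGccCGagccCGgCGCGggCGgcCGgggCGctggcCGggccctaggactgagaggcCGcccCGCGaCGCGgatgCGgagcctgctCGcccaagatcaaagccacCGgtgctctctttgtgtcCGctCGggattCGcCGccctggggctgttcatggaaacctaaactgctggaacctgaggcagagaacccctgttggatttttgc
Wdr5, chr2:27514897-27515146, forward strand: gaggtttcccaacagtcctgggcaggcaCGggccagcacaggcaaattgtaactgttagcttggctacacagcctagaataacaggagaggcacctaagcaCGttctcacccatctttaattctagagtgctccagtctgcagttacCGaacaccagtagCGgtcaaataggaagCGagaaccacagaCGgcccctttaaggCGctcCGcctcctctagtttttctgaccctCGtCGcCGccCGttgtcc
Rbbp5, chr1:132477117-132477366, forward strand: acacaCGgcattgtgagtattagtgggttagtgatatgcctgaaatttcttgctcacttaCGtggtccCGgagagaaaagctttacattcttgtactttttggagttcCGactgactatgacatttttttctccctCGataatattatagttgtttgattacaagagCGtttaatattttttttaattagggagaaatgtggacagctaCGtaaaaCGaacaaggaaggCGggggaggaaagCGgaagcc

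The *Kmt2c* window held 48 CpG, more than 99.8% of the 32851 windows of the same length in the reference, whose median was 6. *Kmt2a*, *Kmt2d* and *Setd1a* held 29, 26 and 25. *Wdr5* and *Rbbp5* held 12 and 10. The 4 catalytic genes with a window thus had more CpG than these 2 core subunits. The *Setd1a* window (127777139 to 127777388, forward strand) lies inside the gene as annotated in GENCODE M21, where it starts at 127776670. *Dpy30* has 4 listed starts, with 1, 21, 28 and 34 CpG, so the division does not extend to it. The GC box GGGCGG, searched on both strands, was found for *Kmt2a*, *Kmt2c*, *Kmt2d* and *Wdr5*, and in 32.7% of all windows. The ETS core CCGGAA was found for *Kmt2a* alone and in 12% of all windows, CCAAT in 1 of the *Dpy30* windows and in 33.8% of all, and CACGTG and TATAAA in no window of a member and in 6.02% and 12.4% of all.

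The genes were first ordered by their level per kb of transcript, the scale on which genes of different length can be compared. In WT hearts, *Setd1a* was lowest at 77.3 ± 1.43 normalized counts per kb (SD, n = 3), followed by *Kmt2c* at 99 ± 5.2, *Setd1b* at 100.7 ± 0.933, *Kmt2a* at 109.7 ± 7.41 and *Kmt2d* at 117.8 ± 1.33. *Kmt2b* stood apart from the other catalytic genes at 231 ± 17. The place of *Setd1a* is uncertain, since 51.8% of its exon bases are shared with a second annotated gene on the same strand. How shared reads were treated is not known. If they were left out, its level per kb is understated. The WT values of *Kmt2c* and *Setd1b* overlapped, as did those of *Kmt2c* and *Kmt2a* and those of *Kmt2a* and *Kmt2d*. All 4 core subunits were above every catalytic gene in mean level, with *Rbbp5* at 280.3 ± 24.7, *Ash2l* at 469 ± 8.36, *Wdr5* at 555 ± 27.4 and *Dpy30*, the smallest subunit, at 1042 ± 104. Per kb of its longest coding transcript, *Ash2l* was at 524 ± 9.34. The WT values of *Kmt2b* and *Rbbp5* did not overlap but came close, with 249.7 the highest of the one and 259.7 the lowest of the other.

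In KOb/c hearts the core kept this order, with *Rbbp5* at 296 ± 16.5, *Ash2l* at 486 ± 11.5, *Wdr5* at 558 ± 26.7 and *Dpy30* at 883 ± 70 normalized counts per kb. *Setd1a* was again lowest at 97.6 ± 6.79, with the same limit on its count, and *Kmt2b* was again highest of the catalytic genes at 250.5 ± 6.74. Between them, *Kmt2c* was at 129 ± 15, *Kmt2a* at 134 ± 14.4, *Kmt2d* at 139.9 ± 11.7 and *Setd1b* at 144 ± 12.3, so *Setd1b* went from the middle of the catalytic genes in WT hearts to second place in mean level. The values of each of these 4 genes overlapped with those of the other 3.

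SETD1B and SETD1A are the catalytic subunits nearest to yeast Set1. *Setd1b* had the largest log2 fold change of the 10 genes. Its normalized count was 1403, 1228 and 1203 in KOb/c replicates 1, 2 and 3, whereas WT replicates 1, 2 and 3 had 892.3, 900.2 and 883.7. Each KOb/c library was thus above each WT library, with 302 counts between the nearest pair, and the SD of the WT libraries, 0.926% of the mean, was below counting error. The log2 fold change was 0.51 (standard error 0.08), or 43.3% in the means. *Setd1a* was counted at 679.8, 626.5 and 592.4 in KOb/c and at 495.8, 512.5 and 497 in WT hearts. Its groups did not overlap either, and its log2 fold change was 0.33 (standard error 0.09). Of the exon bases of *Setd1a*, 51.8% are shared with a second annotated gene on the same strand, so its count could depend on how shared reads were treated.

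KMT2C and KMT2D are the large catalytic subunits linked to enhancers. *Kmt2c* was at 2173, 1894 and 1728 normalized counts in KOb/c replicates 1, 2 and 3, whereas WT replicates had 1423, 1453 and 1570.4. Its groups did not overlap, and the log2 fold change was 0.38 (standard error 0.09). For *Kmt2d*, the values were 2999, 2784 and 2537 in KOb/c, against 2362, 2310 and 2333 in WT hearts. Here too the groups were apart, with a log2 fold change of 0.24 (standard error 0.07). The spread was wider in KOb/c hearts for both, with an SD of 8.33% of the mean for *Kmt2d* in KOb/c against 1.13% in WT.

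KMT2A and KMT2B are the mammalian counterparts of Trithorax. *Kmt2a* was counted at 2481, 2116 and 2036 in KOb/c and at 1691, 1795 and 1934 in WT hearts. The lowest KOb/c library was 102 counts above the highest WT library, and the log2 fold change was 0.29 (standard error 0.09). *Kmt2b* was the exception among the catalytic genes. Its values were 2186, 2079.9 and 2097 in KOb/c and 1921, 1835 and 2115 in WT hearts. WT replicate 3 lay above 2 of the KOb/c libraries, and the log2 fold change was 0.12 (standard error 0.07).

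Of the core subunits, WDR5 docks the catalytic subunit, and ASH2L and RBBP5 together stimulate it. *Wdr5* was at 1698, 1588 and 1549 normalized counts in KOb/c and at 1625, 1673 and 1518 in WT hearts. The groups overlapped throughout, and the log2 fold change was 0.01 (standard error 0.07). *Ash2l* was at 1848, 1781 and 1769 in KOb/c and at 1758, 1752 and 1701 in WT hearts. Its groups were apart by 11.4 counts, and the log2 fold change was 0.05 (standard error 0.06). After rescaling to the same total, the log2 fold changes of *Wdr5* and *Ash2l* had the opposite sign, at -0.07 and -0.02. *Rbbp5* was at 989.5, 1063 and 953.4 in KOb/c and at 879, 1042 and 926 in WT hearts, with overlapping groups and a log2 fold change of 0.08 (standard error 0.09). The *Rbbp5* value was 0.0077 after rescaling to the same total, 0.037 without KOb/c replicate 2, 0.027 without WT replicate 1 and 0.15 without WT replicate 2.

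DPY30 binds ASH2L and is needed for full methylation. *Dpy30* alone of the 10 genes was lower in KOb/c hearts under every alternative tried. It was at 633.2, 724.7 and 732.5 in KOb/c and at 900.5, 829.5 and 736.2 in WT hearts, so that the groups were apart by fewer than 4 counts between KOb/c replicate 3 and WT replicate 3. Its log2 fold change was -0.24 (standard error 0.10). KOb/c replicate 1 had the highest count of all 6 libraries in each of the 6 catalytic genes, and the lowest for *Dpy30*. That library was the highest for 28.2% of all tested genes. The share of genes lowest in it was not counted. Over 4056 genes under 2 kb, members left out, its median log2 deviation from the gene's mean was -0.12, the lowest of the 6 libraries.

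Without the library labelled KOb/c replicate 2, the log2 fold change was 0.54 for *Setd1b*, 0.34 for *Setd1a*, 0.39 for *Kmt2c*, 0.24 for *Kmt2d*, 0.32 for *Kmt2a* and 0.13 for *Kmt2b*. Among the core subunits it was 0.016 for *Wdr5*, 0.058 for *Ash2l*, 0.037 for *Rbbp5* and -0.27 for *Dpy30*. The direction of all 10 was thus as with that library, and *Setd1b* was again the highest and *Dpy30* the lowest.

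**Figure D1:**
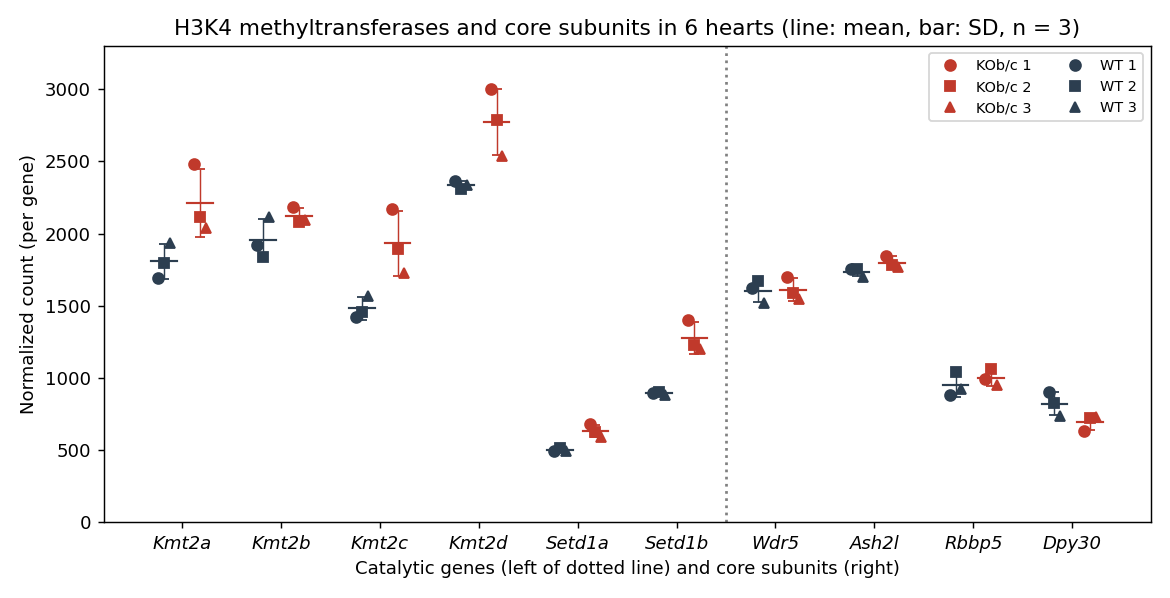
Normalized count of each gene (vertical axis) in each of the 6 libraries, with WT in dark and KOb/c in red; lines are means and bars are SD over 3 mice. The KOb/c points of *Setd1b* lie between 1203 and 1403 and the WT points between 883.7 and 900.2, while the points of *Wdr5*, *Rbbp5* and *Kmt2b* overlap.

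In the fit across all 16016 genes, limma with Benjamini-Hochberg adjustment called 0 genes at 0.05, or 0%, and so 0 of the 10 members. At an unadjusted p-value under 0.05 by limma, 5 of the 6 catalytic genes were higher, where 13% of all genes were, and 1 of the 4 core subunits, *Dpy30*, was lower, where 10.5% of all genes were. On the recovered reads, edgeR called 0 genes after adjustment, or 0%, and 24% before it. DESeq2 placed 5 of the 6 catalytic genes and 0 of the 4 core subunits above WT at an adjusted p-value under 0.05, where it placed 8.22% of the genes to which it gave an adjusted p-value. It placed no member below WT, where it placed 5.03% of those genes. Since the contrast was known when the genes were chosen, these counts only describe them. KOb/c and WT libraries did not overlap, with KOb/c higher, for 5 catalytic genes and for *Ash2l*, and for 15.6% of all genes. They did not overlap with KOb/c lower for *Dpy30* and for 14.6% of all genes.

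The median log2 fold change was 0.31 over the catalytic genes, 0.03 over the core subunits and -0.0043 over all tested genes. The core median changed sign with the scaling, to -0.04 after rescaling to the same total and -0.0072 after quantile normalization, and was -0.00025 without KOb/c replicate 1. Without KOb/c replicate 2, the medians were 0.33 and 0.027. The log2 fold change was above 0 for 9 of the 10 members, and for 49.2% of all genes. The difference between both classes was 0.28, and 0.30 without KOb/c replicate 2. Without KOb/c replicate 1 it was 0.24. Within each library, the mean log2 deviation of the catalytic genes less that of the core subunits was 0.30, 0.11 and 0.09 in KOb/c replicates 1, 2 and 3. In WT replicates 1, 2 and 3 it was -0.21, -0.24 and -0.05. All libraries labelled KOb/c, replicate 2 among them, were thus above all WT libraries. Because the members were chosen with the contrast known, this does not bear on the genotype of that replicate. Taken within a library, the catalytic level less the core level does not depend on the scaling between libraries. The difference between the medians of both classes also stayed at 0.28 after rescaling to the same total.

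The same division by length ran through all genes. Over the 1270 genes with a longest transcript under 1 kb, where *Dpy30* falls, the median log2 fold change was -0.20. It was -0.03 over the 6319 genes between 2 and 4 kb, where *Wdr5*, *Ash2l* and *Rbbp5* fall, and 0.11 over the 4758 genes between 4 and 8 kb, where *Setd1a* falls. Over the 811 genes between 8 and 16 kb, among them *Kmt2b*, *Kmt2c* and *Setd1b*, it was 0.27, and 86.7% of these genes were above 0. Over the 38 genes of 16 kb or more, among them *Kmt2a* and *Kmt2d*, it was 0.28. Thus *Kmt2a*, *Kmt2d* and *Dpy30* lay near the median of all genes of their length, *Kmt2b* at the lower quartile and *Kmt2c* at the upper quartile of theirs, which were 0.12 and 0.38, and *Setd1a* and *Setd1b* above the upper quartiles of theirs, which were 0.24 and 0.38.

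**Figure D2:**
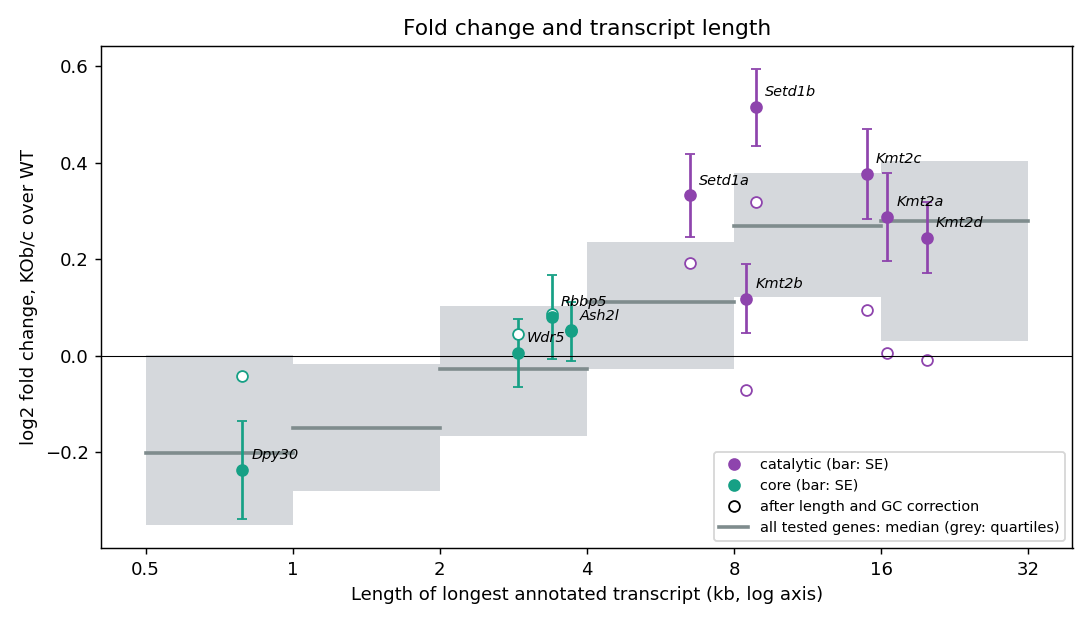
Log2 fold change of KOb/c over WT (vertical axis) against the length of the longest annotated transcript (horizontal log axis, kb) for the 6 catalytic genes (purple) and 4 core subunits (green), filled as deposited with SE bars and open after correction for length and GC content; grey lines and bands are the median and quartiles of all tested genes in each length class. *Setd1b* lies at 0.51 where genes of 8 to 16 kb have a median of 0.27, and *Kmt2a* and *Kmt2d* move to near 0 after the correction.

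The trend with length could be seen library by library. Over 844 genes of 8 kb or more and 4056 genes under 2 kb, members left out, the median log2 deviation of the long genes less that of the short genes was 0.34, 0.19 and 0.08 in KOb/c replicates 1, 2 and 3, whereas it was -0.31, -0.18 and -0.14 for WT replicates 1, 2 and 3. KOb/c replicate 1, with the largest excess of long genes, also had the highest catalytic level. Signs of RNA integrity were not analysed here. Every catalytic gene has a longer transcript than every core subunit, so length and class cannot be told apart within the members. The correction used here took length and GC content together, so what it removed cannot be assigned to length alone.

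That correction fitted each library's deviations with splines in transcript length and GC content and removed the fit. The median log2 fold change was then 0.05 over the catalytic genes and 0.05 over the core subunits, so the difference between them was 0.00072, against 0.28 before. In KOb/c replicates 1, 2 and 3 the corrected catalytic level less the core level was 0.08, -0.05 and 0.04. In WT replicates 1, 2 and 3 it was -0.04, -0.16 and 0.12, and the groups overlapped. Its mean was 0.026 ± 0.069 in KOb/c and -0.026 ± 0.142 in WT hearts (SD, n = 3). Thus the class difference was less close to 0 by means than by medians. Without KOb/c replicate 2, the difference between the corrected medians was 0.028. *Kmt2a*, *Kmt2d* and *Kmt2b* had corrected log2 fold changes of 0.01, -0.01 and -0.07, *Kmt2c* one of 0.09 and *Dpy30* one of -0.04, and the corrected values of each of these 5 genes overlapped between the genotypes. *Wdr5*, *Ash2l* and *Rbbp5* hardly moved, at 0.05, 0.05 and 0.09.

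*Setd1a* and *Setd1b* kept part of their difference. The corrected log2 fold change was 0.32 (standard error 0.07) for *Setd1b* and 0.19 (standard error 0.08) for *Setd1a*. Their corrected values in the 3 KOb/c libraries were all above those in the 3 WT libraries, which held for 11.2% of all genes and for none of the other 8 members. The corrected log2 deviation of *Setd1b* was 0.27, 0.09 and 0.12 in KOb/c replicates 1, 2 and 3, whereas it was -0.15, -0.19 and -0.14 for WT replicates 1, 2 and 3. That of *Setd1a* was 0.19, 0.07 and 0.03 in KOb/c and -0.11, -0.10 and -0.08 in WT hearts. Of all tested genes, 92.1% had a lower corrected fold change than *Setd1b* and 82.4% a lower one than *Setd1a*. Without KOb/c replicate 2 the corrected values were 0.35 and 0.20. After the correction, limma called 0 genes with adjustment, or 0%. At an unadjusted p-value under 0.05 it placed *Setd1a* and *Setd1b* above WT, with 7.75% of all genes, and no member below WT, with 6.69% of all genes. The corrected log2 fold change was above 0 for 7 of the 10 members and for 52.4% of all genes.

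*Setd1b* and *Kmt2b* have transcripts of like length and GC content, with 8.86 and 8.47 kb and with 59% and 59.1% GC. The *Setd1b* count divided by the *Kmt2b* count was 0.642, 0.59 and 0.573 in KOb/c replicates 1, 2 and 3, whereas it was 0.465, 0.491 and 0.418 for WT replicates 1, 2 and 3. The mean was 0.602 ± 0.0356 in KOb/c and 0.458 ± 0.0369 in hearts of WT mice (SD, n = 3 of each genotype), and the groups did not overlap. The pair was picked after the values had been seen, and these genes have the largest and the smallest fold change of the 6 catalytic genes, so the separation of their ratio follows from the choice and is given only as a description.

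As a share of the summed level per kb of the 6 catalytic genes, *Setd1b* made up 16.1% ± 0.268 in KOb/c and 13.7% ± 0.596 in WT hearts. The share of *Kmt2b* was 26.7%, 28% and 29.4% in KOb/c replicates 1, 2 and 3, below the 31.5%, 30.1% and 32.6% of WT replicates 1, 2 and 3. Within the catalytic genes, these 2 were the ones whose shares parted most in size. The sum itself was 896 ± 65.5 normalized counts per kb in KOb/c and 736 ± 26.4 in WT hearts, and the groups did not overlap. For the core subunits it was 2223 ± 40.7 and 2347 ± 135, with overlap. Division by kb does not remove the trend with length between libraries, and neither sum was corrected for it. The catalytic sum also carries the limit from the shared exon bases of *Setd1a*.

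**Figure D3:**
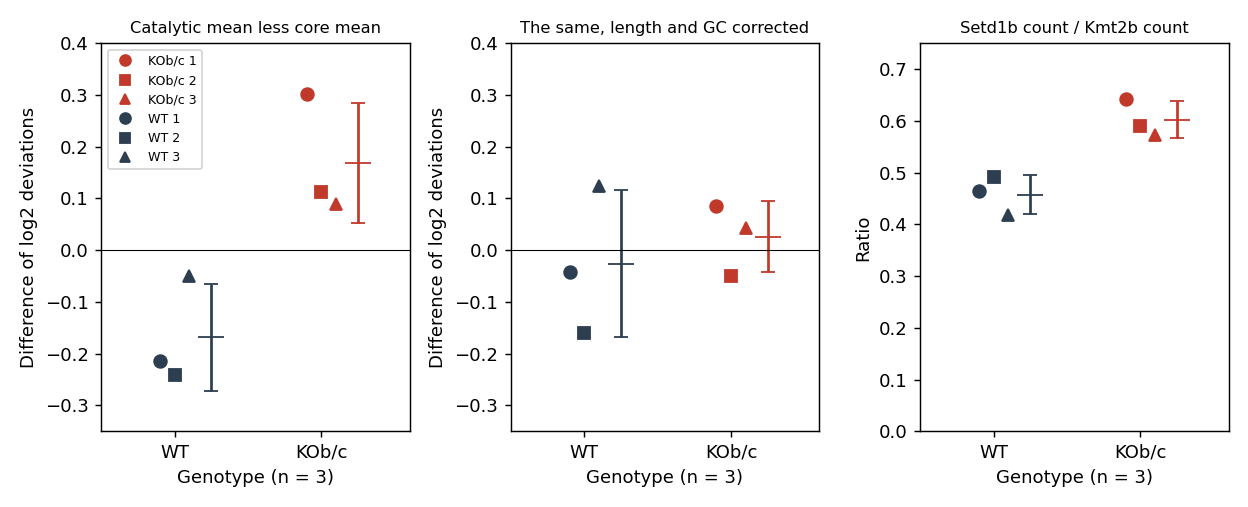
Each library's mean log2 deviation of the catalytic genes less that of the core subunits (left), the same after correction for length and GC content (middle), and the ratio of the *Setd1b* to the *Kmt2b* count (right), for 3 WT and 3 KOb/c hearts; short lines with bars are mean and SD. KOb/c libraries lie above WT libraries on the left (0.09 to 0.30 against -0.24 to -0.05), overlap with them in the middle, and lie above them again on the right (0.573 to 0.642 against 0.418 to 0.491).

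Other subunits set the COMPASS complexes apart from each other. Of 11 such genes listed, 10 were in the table and *Pagr1a* is not listed in it. Limma called 0 of them. At an unadjusted p-value under 0.05, 4 were higher and 0 lower, where 13% of all genes were higher and 10.5% lower, and 1 was higher after the length and GC correction, where 7.75% of all genes were. *Ncoa6*, a coactivator in the KMT2C and KMT2D complexes, had the largest log2 fold change at 0.36 (standard error 0.08, adjusted p = 0.0815 by limma). Its normalized count was 1593, 1496 and 1485 in KOb/c, above the 1067, 1283 and 1212 of WT hearts. *Men1*, which encodes menin of the KMT2A and KMT2B complexes, had the smallest at -0.10 (adjusted p = 0.51 by limma). After the length and GC correction, *Ncoa6* was at 0.17 and *Men1* at -0.04. The median over the 10 genes was 0.10, and 0.06 after the correction.

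The enzymes that remove H3K4 methylation were measured beside those that place it. All 5 demethylase genes listed had a log2 fold change above 0, as did 49.2% of all genes, and limma called 0 of them. At an unadjusted p-value under 0.05, 2 were higher, against 13% of all genes, and 0 after the length and GC correction, against 7.75%. *Kdm5b*, which removes di- and trimethylation, had the largest at 0.35 (standard error 0.11, adjusted p = 0.115 by limma), with 1153, 938.6 and 959.6 normalized counts in KOb/c and 761.1, 736 and 896.1 in WT hearts. *Kdm1a*, which encodes LSD1 and has a transcript of 3.03 kb, had the smallest at 0.09 (adjusted p = 0.453 by limma). Corrected for length and GC content, the median over the 5 genes went from 0.15 to 0.07, and *Kdm5b* and *Kdm1a* were alike at 0.12 and 0.13.

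Of 5 other methyltransferases or relatives linked to H3K4, limma called 0. Before adjustment 4 had a p-value under 0.05 and were higher, against 13% of all genes, and 2 after the length and GC correction, against 7.75%. *Kmt2e*, a relative of the KMT2 genes, had the largest log2 fold change at 0.39 (standard error 0.08, adjusted p = 0.0815 by limma), and *Setd5* the smallest at 0.22 (adjusted p = 0.148 by limma). *Kmt2e* was at 3037, 2665 and 2653 normalized counts in KOb/c and at 1993, 2153 and 2229 in WT hearts, and at 0.20 after the correction. *Smyd1*, a methyltransferase of striated muscle, was the one whose fold change did not fall with the correction, at 0.25 before and 0.26 after. Its name is outside the rule for genes to be named and was chosen after its value had been seen. It was at 40417, 32323 and 33386 in KOb/c and between 29432 and 29601 in WT hearts. The summed level of 5 cardiomyocyte markers ran from 2069880 to 2330050 in KOb/c and from 1691260 to 1825040 in WT hearts. *Myh6* made up the largest part of that sum. The log2 fold changes of the markers were mixed, at 0.55 for *Myh6*, 0.61 for *Ryr2* and 0.15 for *Actc1*, against -0.09 for *Tnnt2* and -0.13 for *Tnni3*, and their part in the *Smyd1* values was not tested.

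Methyltransferases of other histone lysines gave a mixed picture. Of 13 genes, limma called 0. At an unadjusted p-value under 0.05, 5 were higher and 0 lower, against 13% and 10.5% of all genes. After the length and GC correction this became 0 higher and 1 lower, against 7.75% and 6.69%. *Ash1l*, a Trithorax group gene with a transcript of 11.6 kb, had the largest log2 fold change at 0.42 (standard error 0.11, adjusted p = 0.0902 by limma) and 0.17 after the correction. *Ezh2*, the catalytic subunit of Polycomb repressive complex 2 (PRC2) in dividing cells, had the smallest at -0.25 (standard error 0.14, adjusted p = 0.312 by limma) and -0.20 after it. *Ezh2* was highest in WT replicate 1 at 506.1. The summed level of *Mki67*, *Top2a* and *Ccnb1*, genes of dividing cells, was also highest there at 2410, against 710 to 1110 in the other WT libraries and 534 to 705 in KOb/c hearts, and its part in the *Ezh2* values was not tested. The 4 genes of the PRC2 core have transcripts of 2.07 to 4.66 kb and ran from -0.16 for *Eed* to 0.00030 for *Suz12*, with 0 called by limma and 0 at an unadjusted p-value under 0.05.

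**Figure D4:**
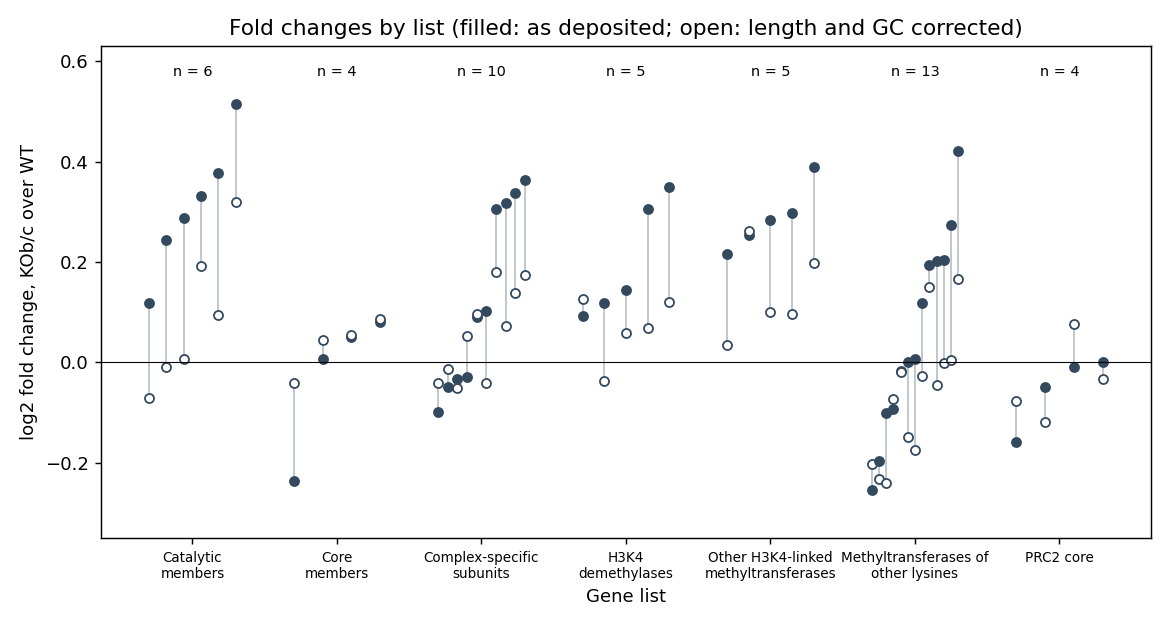
Log2 fold change of KOb/c over WT (vertical axis) of each member and each gene of 5 further lists (horizontal axis, n genes each), filled as deposited and open after correction for length and GC content, with a line joining both values of a gene. All 6 catalytic genes are lower after the correction, and *Setd1b*, the highest point, goes from 0.51 to 0.32.

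Over all 37 genes of these lists, the median log2 fold change was 0.12 before and 0.0043 after the correction. At an adjusted p-value under 0.05, DESeq2 called 10 of them higher and 0 lower. Of the genes to which it gave an adjusted p-value, it called 8.22% higher and 5.03% lower. By limma, 15 of the 37 had an unadjusted p-value under 0.05, all higher, where 13% of all genes were higher and 10.5% lower. Without KOb/c replicate 2 there were 16, where 3337 of the 16016 tested genes had such a p-value. After the length and GC correction there were 4, in both directions, where 7.75% of all genes were higher and 6.69% lower. Markers of other cell types also varied between libraries. The summed level of 3 adipocyte markers was 60.5, 1293 and 4519 in KOb/c replicates 1, 2 and 3 and ran from 1014 to 3106 in WT hearts, so that KOb/c replicate 1, highest in the catalytic genes, was lowest in adipocyte markers. Summed endothelial markers ran from 35095 to 37921 in KOb/c and from 32247 to 34335 in WT hearts. Summed fibroblast, smooth muscle, macrophage, lymphocyte and erythroid markers overlapped between the genotypes, with *Cd3e* of the lymphocyte list not in the table. The part of these cells in the members' values was not tested.

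The genes whose levels over the 6 libraries were most like the mean profile of the catalytic genes were *Mnt* (Pearson's r = 0.999), *Klf3* (0.999), *Msi2* (0.998), *Ccdc6* (0.998) and *Satb1* (0.996). The points share libraries and genotype, and 7.78% of the tested genes had an r above 0.9, so likeness to this profile was common. Their transcripts ran from 4.59 kb for *Mnt* to 6.44 kb for *Msi2*, shorter than those of the catalytic genes, and their log2 fold changes from 0.26 for *Ccdc6* to 0.59 for *Mnt*.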

How the data were processed

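RNAseq libraries were sequenced as paired reads of 150 bp. The submitters' processing notes name Trimmomatic 0.36, STAR 2.5.2b, featureCounts of Subread 1.5.2, DESeq2 and build GRCm38. The annotation and the treatment of strand and shared reads are not given in the sources used here. The authors deposited a normalized signal for every gene: read counts over a size factor of the library, not scaled to length. Multiplied by that factor, 100% of values in each library came out whole within 0.01, and these reads entered the count tests. Symbols, positions and lengths came from GENCODE M21.

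KOb/c and WT libraries were compared by a moderated two-sided test in R 4.3.3 (limma 3.58.1, variance trend), applied to log2 of the normalized count plus 1, over genes with a mean of at least 10, with p-values adjusted by Benjamini-Hochberg and called at 0.05. Fold changes on this scale understate those of low genes. Alternatives were pseudocounts of 0.5 and 5, no filter, a filter at a mean of 50, no variance trend, quantile normalization, equal library totals (called rescaling to the same total), a replicate block, a correction for GC content and log2 transcript length (splines, 5 degrees of freedom each), each library left out, edgeR 4.0.16 and DESeq2 1.42.0. The procedures were tested on simulated data. Members and lists were chosen with earlier results of these data known. Of each list, the genes with the largest and smallest fold change are named. The limma p-values set the difference between genotypes against the spread between these mice, moderated over all genes.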

Additional observations from a re-analysis of the deposited data

How the results depend on the processing

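The number of genes called by limma, 0 as reported, lay between 0 and 3 with each library left out, the 3 coming without KOb/c replicate 2, and was 1587 by DESeq2. It was 2 with the length and GC correction without KOb/c replicate 2, an alternative chosen after the data had been seen. For the 37 genes of the further lists it was 0 with each library left out and 10 by DESeq2, all higher. DESeq2 called 8.22% of the genes with an adjusted p-value higher and 5.03% lower. The median log2 fold change over the 10 members, 0.18 as reported, was 0.11 after rescaling to the same total, 0.13 after quantile normalization, 0.050 after the length and GC correction with or without the replicate block and 0.055 after that correction without KOb/c replicate 2. It lay between 0.14 and 0.22 with each library left out. The difference between catalytic and core genes, 0.28 as reported, was 0.00072 after the length and GC correction with or without the replicate block, 0.028 after it without KOb/c replicate 2, and between 0.24 and 0.33 with each library left out. Over 19 alternatives the log2 fold change ran from 0.32 to 0.56 for *Setd1b*, from 0.19 to 0.38 for *Setd1a* and from -0.31 to -0.04 for *Dpy30*. That of *Kmt2b* was above 0 in 16 of the 19 and that of *Kmt2d* in 17, the others being fits with the length and GC correction. Same-numbered KOb/c and WT libraries had Pearson's r across genes of 0.23, 0.07 and -0.03 for numbers 1, 2 and 3. Differently numbered ones ran from -0.18 to 0.15. With 3 libraries per genotype, these values cannot decide whether the numbers pair the mice. With the replicate block, limma called 0 genes, and 3924 had an unadjusted p-value under 0.05 against 3764 without it. With 3 mice per genotype and an SD of up to 11.6% of the mean, small differences such as that of *Wdr5* were not detectable.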
